A study of Mus musculus with 9 samples.

Results

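The genes described here are 9 genes known for their part in cartilage: *Sox9*, *Sox5*, *Sox6*, *Col2a1*, *Acan*, *Comp*, *Hapln1*, *Chst3* and *Thbs4*. They were found by symbol in the deposited tables of 55416 genes, where each symbol occurred on a single row. The list was put together with earlier results of these libraries in view, *Col2a1* among them, so the levels and differences of the 9 genes are given as a description, with no p-value of their own, and how many of them met the study's threshold is stated only beside the share of all genes that did. Of the 9 genes, 8 had enough counts for the fit across all genes, and *Acan* did not.

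The RNA came from MC3T3-E1 cells, an established line of mouse pre-osteoblasts (subclone 4, wild type), which form a mineralizing matrix when given ascorbic acid and a phosphate source. All 9 libraries share the line and the osteogenic medium, for which the labels give 10% serum, 50 µg/ml ascorbic acid, 0.1 µM dexamethasone and 10 mM β-glycerophosphate (BGP). At day 27 the cells received 4 mM BGP, an organic phosphate, 4 mM NaHPO4, the name used for a mixture of Na2HPO4 and NaH2PO4 as inorganic phosphate, or neither (Control), and RNA was taken 16 h later, at day 28. Each condition has 3 libraries of polyadenylated RNA, and nothing in the labels says that these came from separately grown cultures. The SDs given therefore measure the spread between these libraries, which may be technical. The SEs of fold changes come from a fit that draws each gene's spread toward that of other genes. They can be smaller or larger than the gene's own libraries give. According to the study's methods the BGP of the osteogenic medium had been withdrawn before the treatment, which the labels do not mention. All groups come from 1 cell line, which limits them as a model of bone cells.

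In cartilage, *Sox9* encodes the transcription factor that defines the chondrocyte, and *Sox5* and *Sox6* encode partners that act with it on the genes of the matrix. The matrix itself is built from fibrils of type II collagen, encoded by *Col2a1*, and from aggregates in which the proteoglycan aggrecan (*Acan*) is fixed to hyaluronan by a link protein (*Hapln1*). *Comp* and *Thbs4* encode thrombospondins that bind collagens and other matrix proteins, and *Chst3* encodes the sulfotransferase that adds sulfate to carbon 6 of the galactosamine in chondroitin sulfate, the sugar chain carried by aggrecan. Bone-forming cells share several of these genes with chondrocytes.

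Total counts were 21390839 to 28234404 per library, and values are given as CPM, counts relative to the library's total, after TMM normalization, which scales libraries so that most genes do not differ. A chi-square statistic per degree of freedom over the tested genes was 2.61 to 4.84 between libraries of the same condition and 5.89 to 18.0 between libraries of different conditions. All libraries were therefore kept as separate replicates. At this depth 3 counts in a library correspond to 0.105 to 0.140 CPM.

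The profile of cartilage genes in these cells was partial. *Acan* had 0 counts in each Control library, 1 count in BGP replicate 1, 1 count each in NaHPO4 replicates 1 and 2, and 0 counts in the others, 3 counts in all. A count of 0 in a Control library allows up to 3 counts, and every library lay under that limit, so no level of *Acan* could be compared. Other genes that set chondrocytes apart, named here after their values were seen, had few counts or none: *Matn1* (matrilin-1) and *Ucma* had 0 counts in all libraries together, *Snorc* 3, *Cnmd* (chondromodulin) 9, and the type IX collagen genes *Col9a1* and *Col9a3* 59 and 64. The same lists also held genes with more counts, likewise named after their values were seen, such as the type IX collagen gene *Col9a2* with 453, *Matn3* with 376, *Cilp2* with 616, *Hapln4* with 10630 and *Matn4* with 16813. Of the 20 listed genes of the aggrecan network and other matrix proteins, 4 had 0 counts, 8 had 1 to 99 and 8 had 100 or more over the 9 libraries, and of the 7 cartilage collagens 3 had 1 to 99 and 4 had 100 or more. By contrast all 12 osteoblast and osteocyte markers were expressed, with a summed level of 97674 to 105247 CPM in the Control libraries. Most of that sum was type I collagen, as *Col1a1* and *Col1a2* had Control means of 43284.9 and 56379.8 CPM. The sum of the 9 listed genes was 607 to 669 CPM. The 9 genes are therefore called cartilage-associated genes here, and no chondrocytes are implied by the name.

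Levels between genes were compared as CPM per kilobase of merged exons, from the annotation of GRCm39. In Control, *Hapln1* stood highest at 33.0 ± 0.461 CPM per kilobase (SD, n = 3, as for the values that follow). *Col2a1* came next at 25.9 ± 3.46 CPM per kilobase and *Sox9* after it at 9.77 ± 0.778 CPM per kilobase. *Chst3*, at 6.13 ± 0.166 CPM per kilobase, and *Comp*, at 5.37 ± 0.901 CPM per kilobase, followed with libraries that overlapped, so their order was not resolved. *Sox6* reached 3.24 ± 0.258 CPM per kilobase, *Thbs4* 1.43 ± 0.625 CPM per kilobase and *Sox5* 0.460 ± 0.0355 CPM per kilobase. Apart from *Chst3* and *Comp*, no neighbours in this order from *Hapln1* to *Sox5* had overlapping Control libraries.

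The order depends in part on the length chosen. With the length of the canonical transcript, 5 of the 9 genes kept their place, while *Col2a1* moved above *Hapln1* and *Comp* above *Chst3*. The collagens of bone were far above these genes on the same scale, *Col1a1* at 6591 and *Col1a2* at 4457 CPM per kilobase in Control. The type XI collagen genes, whose chains join type II collagen in cartilage fibrils and type I or V collagen elsewhere, also exceeded *Col2a1*, with *Col11a1* at 124 and *Col11a2* at 89.4 CPM per kilobase.

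**Figure D1:**
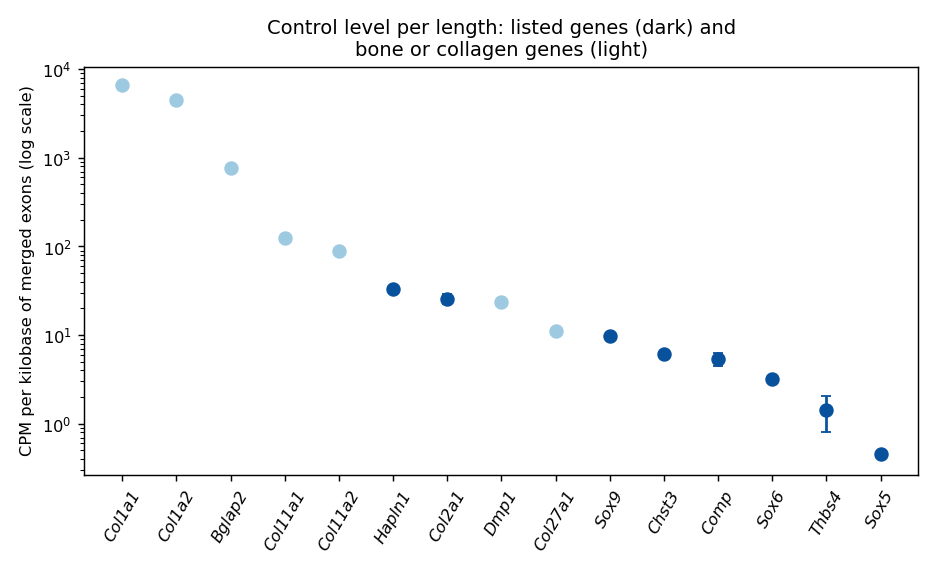
Mean level in the 3 Control libraries in CPM per kilobase of merged exons, on a log axis, for 8 of the 9 cartilage-associated genes (dark points, bars are SD over 3 libraries; *Acan*, with no count in Control, cannot be drawn) and for bone markers and other collagen genes (light points, means only). *Hapln1* at 33.0 and *Col2a1* at 25.9 CPM per kilobase lie below *Col11a1*, *Col11a2* and the bone genes *Col1a1*, *Col1a2* and *Bglap2*. The bone gene *Dmp1*, at 23.7, and *Col27a1*, at 11.1 CPM per kilobase, lie below both.

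*Col2a1*, on the minus strand at chr15:97873483-97902689 of GRCm39 with 54 exons in its canonical transcript, differed most between the treatments. Its Control libraries held 264, 205 and 257 CPM, its BGP libraries 403, 325 and 299 CPM, and its NaHPO4 libraries 165, 142 and 225 CPM, each in the order of replicates 1, 2 and 3. All BGP libraries lay above all Control and all NaHPO4 libraries, whereas NaHPO4 replicate 3 lay above Control replicate 2. The mean was 242 ± 32.4 CPM in Control, 342 ± 54.4 CPM in BGP and 177 ± 42.9 CPM in NaHPO4 (SD, n = 3 each). The fitted log2 fold change was 0.50 (SE 0.0937) for BGP versus Control, a fold of 1.42, and -0.45 (SE 0.0954) for NaHPO4 versus Control, a fold of 0.730. Between the treatments it was 0.95 (SE 0.0947), a fold of 1.94 in favour of BGP. Since this is RNA of whole cultures, a change in the share of cells that express a gene and a change in the RNA per cell cannot be told apart, here and in all values that follow.

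*Chst3*, on the minus strand at chr10:60017353-60055167, also had opposite signs for the treatments, and unlike *Col2a1* its libraries were separate in all 3 comparisons. Control libraries held 41.2, 40.7 and 39.1 CPM, BGP libraries 45.8, 51.4 and 49.5 CPM, and NaHPO4 libraries 33.3, 33.5 and 33.2 CPM. The 3 conditions did not overlap, with BGP on top and NaHPO4 at the bottom. The log2 fold change was 0.28 (SE 0.0530) for BGP versus Control, -0.27 (SE 0.0541) for NaHPO4 versus Control and 0.55 (SE 0.0532) for BGP versus NaHPO4. The folds were 1.21, 0.827 and 1.47.

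The 250 bases before the start of each of these canonical transcripts are shown because both genes stood on the same side of Control in each treatment. They were read from GRCm39 in the direction of transcription, and capitals mark matches to the letters searched on both strands.
*Col2a1*, chr15:97902690-97902939, minus strand: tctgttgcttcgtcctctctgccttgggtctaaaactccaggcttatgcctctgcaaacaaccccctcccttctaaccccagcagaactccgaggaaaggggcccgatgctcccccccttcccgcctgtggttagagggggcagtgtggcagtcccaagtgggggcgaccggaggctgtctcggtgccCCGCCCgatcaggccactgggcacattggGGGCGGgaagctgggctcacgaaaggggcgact
*Chst3*, chr10:60055168-60055417, minus strand: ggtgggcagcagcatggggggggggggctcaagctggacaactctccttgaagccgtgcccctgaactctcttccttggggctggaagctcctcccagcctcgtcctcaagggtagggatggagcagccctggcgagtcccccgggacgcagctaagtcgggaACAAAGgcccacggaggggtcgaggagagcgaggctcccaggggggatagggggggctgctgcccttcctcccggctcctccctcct

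The *Col2a1* window holds 2 matches to GGGCGG, the letters of a GC box, at 62 to 57 and at 33 to 28 bases before the start, and the *Chst3* window holds 1 match to ACAAAG, a form of the SOX motif, at 87 to 82 bases before the start. No motif was found in both windows. GGGCGG occurred in 36.3% and ACAAAG in 16.0% of the 21757 windows of the same length before annotated protein-coding genes. The other searched motifs, which were AACAAT for SOX factors, TATAAA for a TATA box, TGANTCA for AP-1 and GCGNGGGCG for EGR factors, had no match in either window and occurred in 9.66%, 11.9%, 6.18% and 4.48% of all windows. Both windows were rich in G and C, 64.0% for *Col2a1* and 68.0% for *Chst3*, against a median of 53.2%. Among the other listed genes, ACAAAG was matched 1 time each before *Sox5* and *Sox6*, TGANTCA 1 time before *Sox9*, and GGGCGG 2 times before *Acan* and 3 times before *Thbs4*, while *Comp* and *Hapln1* had none of these letters. Some canonical starts lie inside the range of the gene, so the window does too. That of *Sox5* is chr6:144155970-144156219 and that of *Sox6* chr7:115445403-115445652. These matches describe the sequence only.

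**Figure D2:**
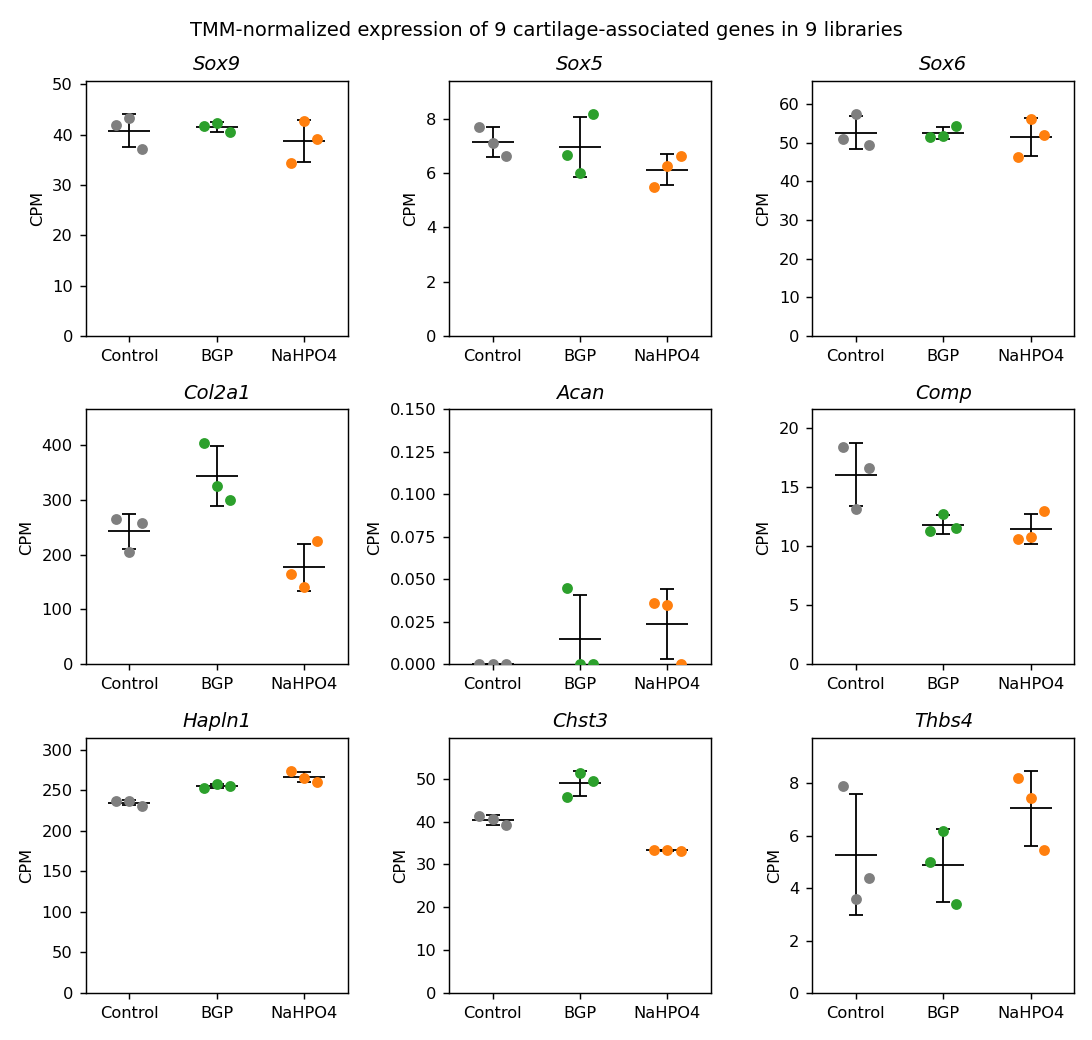
TMM-normalized CPM of the 9 cartilage-associated genes, with a point for each of the 3 libraries per condition in the order of replicates 1 to 3, a horizontal line for the mean and bars for the SD; each vertical axis starts at 0. *Col2a1* and *Chst3* were highest in BGP and lowest in NaHPO4, *Hapln1* was higher and *Comp* lower in both treatments than in Control, and *Acan* stayed under 0.05 CPM.

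The transcription factors that act on cartilage matrix genes showed no such separation. *Sox9* (chr11:112673009-112678586, plus strand) held 42.0, 43.3 and 37.1 CPM in Control, 41.7, 42.4 and 40.4 CPM in BGP and 34.4, 42.7 and 39.1 CPM in NaHPO4. The conditions overlapped, and the log2 fold change was 0.03 (SE 0.0641) for BGP and -0.07 (SE 0.0633) for NaHPO4 versus Control. *Sox6* (chr7:115070106-115638860, minus strand) held 51.0, 57.3 and 49.4 CPM in Control, 51.6, 51.7 and 54.2 CPM in BGP and 46.4, 56.2 and 52.0 CPM in NaHPO4. Its conditions overlapped as well, with log2 fold changes of -0.00 (SE 0.0588) and -0.03 (SE 0.0579). *Sox5* (chr6:143774151-144727703, minus strand), the least abundant of the 3 factors, held 7.71, 7.09 and 6.61 CPM in Control, 6.67, 6.02 and 8.17 CPM in BGP and 5.50, 6.25 and 6.64 CPM in NaHPO4. The NaHPO4 libraries of *Sox5* lay toward the low end without being separate, at a log2 fold change of -0.22 (SE 0.129), beside -0.03 (SE 0.130) for BGP. Between the treatments the log2 fold changes of *Sox9*, *Sox5* and *Sox6* were 0.10 (SE 0.0634), 0.19 (SE 0.130) and 0.03 (SE 0.0580).

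*Hapln1* (chr13:89686581-89759950, plus strand), the link protein gene, was slightly higher in both treatments. Control libraries held 237, 237 and 231 CPM, BGP libraries 253, 258 and 256 CPM, and NaHPO4 libraries 274, 266 and 261 CPM. The 3 conditions did not overlap, and NaHPO4 was on top. The log2 fold change was 0.12 (SE 0.0333) for BGP, 0.18 (SE 0.0330) for NaHPO4 and -0.06 (SE 0.0329) for BGP versus NaHPO4. The last value was -0.09 when libraries were scaled by total counts, a shift larger than the SD between replicates of this gene.

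*Comp* (chr8:70826192-70834716, plus strand), which encodes thrombospondin-5, was lower in both treatments. It held 18.4, 13.1 and 16.6 CPM in Control, 11.2, 12.7 and 11.5 CPM in BGP and 10.6, 10.8 and 12.9 CPM in NaHPO4. Every treated library lay below every Control library, but the margin between Control replicate 2 and NaHPO4 replicate 3 was narrow. The log2 fold change was -0.44 (SE 0.105) for BGP and -0.49 (SE 0.103) for NaHPO4, and 0.05 (SE 0.107) between the treatments. Without Control replicate 2 the values for BGP and NaHPO4 versus Control were -0.56 and -0.61, and without Control replicate 1 they were -0.34 and -0.38.

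*Thbs4* (chr13:92888095-92931501, minus strand), which encodes thrombospondin-4, was low and scattered. Control libraries held 7.90, 3.57 and 4.37 CPM, BGP libraries 5.01, 6.20 and 3.40 CPM, and NaHPO4 libraries 8.23, 7.44 and 5.47 CPM. All conditions overlapped, and the Control library with the highest value exceeded 2 of the 3 NaHPO4 libraries. The log2 fold change was -0.11 (SE 0.208) for BGP, 0.43 (SE 0.193) for NaHPO4 and -0.54 (SE 0.196) for BGP versus NaHPO4. Leaving out Control replicate 1 moved the first value to 0.29 and the second to 0.83, and leaving out Control replicate 2 moved them to -0.32 and 0.22.

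**Figure D3:**
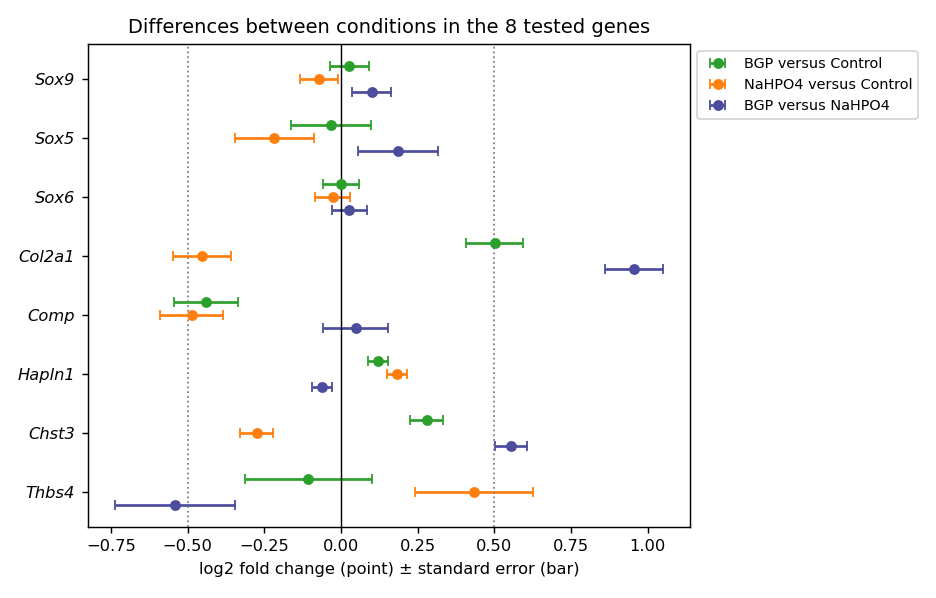
Fitted log2 fold change (point) with its standard error (bar) of the 8 cartilage-associated genes that entered the fit, for BGP versus Control (green), NaHPO4 versus Control (orange) and BGP versus NaHPO4 (blue). Dotted lines mark 0.5 in either direction. The bars come from the fit and are not the spread of each gene's own replicates. *Col2a1* at 0.50 and -0.45 and *Chst3* at 0.28 and -0.27 point in opposite directions versus Control, while *Comp*, at -0.44 and -0.49, and *Hapln1*, at 0.12 and 0.18, point in the same direction.

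The 9 genes also differed in how closely their replicates agreed. The SD of log2 CPM within conditions was 0.26 for *Col2a1*, larger than in any of the 1243 other tested genes with a mean CPM within 2-fold of it, whose median was 0.04. For *Thbs4* it was 0.46, larger than in 99.8% of 2049 genes of a like level. *Sox9*, *Sox6* and *Comp* were also more variable than most, with 95.2%, 95.9% and 94.2% of genes of a like level below them, and *Sox5* was nearer the middle at 65.7%. *Hapln1* and *Chst3* were among the steadier genes, with only 9.70% and 31.7% below them. The coefficient of variation of *Col2a1* was 13.4% in Control, 15.9% in BGP and 24.3% in NaHPO4, beside 2.70%, 5.83% and 0.422% for *Chst3*. As the fit draws such spreads toward those of other genes, the SEs of *Col2a1* and *Thbs4* are smaller than their own replicates give. Those of *Hapln1* are larger.

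As the list was chosen with these results known, how many of its genes met a threshold is only set beside the background here. In BGP versus Control, 1 of the 8 genes (*Col2a1*) met the study's rule of a false discovery rate (FDR) below 0.05 with a log2 fold change above 0.5, and 0 met it downward, where 0.482% of the 13679 tested genes met it upward and 0.0731% downward. With the FDR alone, 3 genes (*Col2a1*, *Chst3* and *Hapln1*) were higher and 1 (*Comp*) lower, where 1.86% and 0.665% of all tested genes were. *Col2a1* only just met the full rule, at a log2 fold change of 0.501 against a minimum of 0.5. It did not meet the rule with scaling by total counts, where its value was 0.498, in limma, where it was 0.495, or without BGP replicate 1 or Control replicate 2, where it was 0.37 and 0.39. In DESeq2's test the value was 0.502, above the minimum, and it was the FDR that was not met. In NaHPO4 versus Control 0 of the 8 genes met the full rule in edgeR's quasi-likelihood test, its likelihood ratio test, DESeq2 or limma, and the background of that rule was 0.446% upward and 0.27% downward. At an unadjusted p under 0.05 there were 5 of the 8 genes, where 19.9% of all tested genes were. By FDR alone 1 gene (*Hapln1*) was higher and 3 (*Col2a1*, *Comp* and *Chst3*) lower, where 3.43% and 3.95% of all tested genes were. The unadjusted share was 4 of the 8 genes in BGP versus Control, beside 13.4% of all tested genes. It was 3 of the 8 in BGP versus NaHPO4, beside 16.9%. In BGP versus NaHPO4 2 genes (*Col2a1* and *Chst3*) met the full rule upward and 0 downward, against a background of 0.38% and 0.205%, and by FDR alone the same 2 genes were higher, where 3.33% of all genes were higher and 2.05% lower. *Thbs4* met the full rule downward in that comparison with the replicate number as a block (-0.53), with no filter on low counts (-0.54), with only the 2 groups compared (-0.54), and without Control replicate 1 (-0.54) or NaHPO4 replicate 3 (-0.69). Of the genes called over the whole table in that comparison 65.0% were higher in BGP, and 52.3% with scaling by total counts. The median log2 fold change of the 8 genes was 0.01, -0.15 and 0.07 in the 3 comparisons, beside -0.00, 0.00 and -0.00 for all tested genes. Nothing is read from these counts, as the genes were selected on the same contrasts, and the first 2 comparisons share their Control libraries.

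The genes of a wider cartilage list, 91 other genes in 6 groups by role, were counted in the same fit, with p-values adjusted over all 13679 tested genes by edgeR's quasi-likelihood test. Of the 91 genes, 62 had enough counts. In BGP versus Control 0 of the 62 met the full rule in edgeR's quasi-likelihood test, its likelihood ratio test, DESeq2 or limma, 3 rose and 2 fell by the FDR (0 fell without BGP replicate 2, and 4 fell without Control replicate 3 or BGP replicate 3), 16 or 25.8% had an unadjusted p under 0.05, where 13.4% of all tested genes had, and their median log2 fold change was -0.03. In NaHPO4 versus Control 1 rose and 1 fell by the full rule, 3 rose and 11 fell by the FDR (1 rose without Control replicate 1 or NaHPO4 replicate 1), 23 or 37.1% had an unadjusted p under 0.05, where 19.9% of all tested genes had, and the median was -0.03. In BGP versus NaHPO4 0 met the full rule in any of the same 4 tests, 9 were higher and 2 lower in BGP by the FDR (5 higher without NaHPO4 replicate 3), 21 or 33.9% had an unadjusted p under 0.05, where 16.9% of all tested genes had, and the median was 0.03. By the FDR 1.86% of all tested genes rose and 0.665% fell in BGP, 3.43% rose and 3.95% fell in NaHPO4, and 3.33% were higher and 2.05% lower in BGP than in NaHPO4. In the same comparison 1 or 2 genes of the list met the full rule when 1 of BGP replicates 2 and 3 or NaHPO4 replicates 1 and 2 was left out, namely *Chst11* in each case and *Col11a2* without NaHPO4 replicate 1.

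Among the 5 tested cartilage collagens, 1 fell in BGP and 2 fell in NaHPO4 by the FDR, and 0 rose in either. *Col11a2* (chr17:34258108-34285664), a chain of type XI collagen, held 700, 636 and 657 CPM in Control, 591, 553 and 575 CPM in BGP and 485, 424 and 381 CPM in NaHPO4. It fell in both treatments without overlap, by 0.21 on the log2 scale in BGP (SE 0.0479, adjusted p = 0.00698) and by 0.63 in NaHPO4 (SE 0.0481, adjusted p = 5.14e-12), and the log2 fold change of BGP versus NaHPO4 was 0.41 (SE 0.0482, adjusted p = 1.42e-07). The call for BGP was lost in DESeq2 (adjusted p = 0.316) and without Control replicate 1 or BGP replicate 2, at log2 fold changes of -0.17 and -0.19. *Col27a1*, a fibrillar collagen of cartilage named after its values were seen, fell by 0.21 in NaHPO4 (SE 0.0395, adjusted p = 0.000411). *Col11a1*, the most abundant of the group, had log2 fold changes of -0.03 (SE 0.0355) and -0.10 (SE 0.0355) that did not pass. *Col10a1*, the collagen of hypertrophic chondrocytes and likewise named after its values were seen, had only 92 counts in all. Its values of 1.27 (SE 0.582) and 0.81 (SE 0.598) did not pass.

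Of the 9 tested cartilage transcription factors 0 passed the FDR in BGP versus Control (1 at an unadjusted p under 0.05), and in NaHPO4 2 rose and 1 fell. *Runx3*, a Runt factor of maturing chondrocytes, held 77.9, 74.2 and 77.3 CPM in Control, 80.9, 70.8 and 76.8 CPM in BGP and 65.8, 63.0 and 67.9 CPM in NaHPO4. It was lower in every NaHPO4 library than in any other, with a log2 fold change of -0.22 (SE 0.0462, adjusted p = 0.00128) versus Control. *Trps1*, a GATA-type repressor, rose by 0.12 (SE 0.0346, adjusted p = 0.0288) and *Mef2c*, named after its values were seen, by 0.13 (SE 0.0380, adjusted p = 0.0288) in NaHPO4. Neither call held without Control replicate 1 (0.11 and 0.11) or NaHPO4 replicate 1 (0.08 and 0.09), nor did that of *Trps1* without Control replicate 3 (0.12) or that of *Mef2c* without Control replicate 2 (0.13) or NaHPO4 replicate 2 (0.14).

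Among the 8 tested genes of the aggrecan network and other matrix proteins, 1 rose and 1 fell in BGP, and 1 rose and 2 fell in NaHPO4. *Vcan* encodes versican, the hyaluronan-binding proteoglycan of loose tissues that is related to aggrecan. It held 39.0, 45.4 and 41.1 CPM in Control, 57.4, 53.8 and 62.4 CPM in BGP and 66.1, 71.9 and 75.0 CPM in NaHPO4. The 3 conditions were separate, and *Vcan* rose by 0.47 in BGP (SE 0.0585, adjusted p = 7.88e-07) and by 0.76 in NaHPO4 (SE 0.0565, adjusted p = 2.26e-12). It was lower in BGP than in NaHPO4 by a log2 fold change of -0.29 (SE 0.0547, adjusted p = 0.000422). *Vcan* passed the minimum of 0.5 in BGP versus Control only when Control replicate 2 or BGP replicate 2 was left out, at 0.53 and 0.52. *Matn2*, a matrilin found in many tissues, fell by 0.14 in BGP (SE 0.0402, adjusted p = 0.0498) and by 0.19 in NaHPO4 (SE 0.0399, adjusted p = 0.00160). The call for BGP was lost in DESeq2 and without Control replicate 2 (-0.09), BGP replicate 1 (-0.10), BGP replicate 2 (-0.14) or NaHPO4 replicate 2 (-0.14). In edgeR's quasi-likelihood test it was also lost with only the 2 groups compared (adjusted p = 0.0546) and with DESeq2's size factors (adjusted p = 0.0505). *Matn4*, named after its values were seen, fell by 0.22 in NaHPO4 (SE 0.0618, adjusted p = 0.0208), a call that was lost in DESeq2 and without Control replicate 2 or NaHPO4 replicate 1, at -0.14 in both.

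The 3 other thrombospondins were all expressed. *Thbs1*, the most abundant, had log2 fold changes of 0.03 (SE 0.0377) in BGP and -0.06 (SE 0.0376) in NaHPO4 that did not pass. *Thbs3*, which belongs with *Comp* and *Thbs4* to the thrombospondins that form pentamers, held 8.55, 10.2 and 8.70 CPM in Control, 7.85, 8.98 and 8.08 CPM in BGP and 6.19, 7.58 and 6.87 CPM in NaHPO4. It fell in NaHPO4 by 0.41 on the log2 scale (SE 0.115, adjusted p = 0.0198), while its value in BGP was -0.14 (SE 0.115, adjusted p = 0.652). The call for NaHPO4 was lost without Control replicate 2 (-0.33), NaHPO4 replicate 1 (-0.34) or NaHPO4 replicate 3 (-0.41).

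Of the 23 tested genes of chondroitin sulfate synthesis 2 rose and 0 fell in BGP, and 0 rose and 1 fell in NaHPO4. Both genes that rose encode sulfotransferases of the same chains on which *Chst3* acts. *Chst11*, which adds sulfate to carbon 4 of the galactosamine, held 57.9, 58.3 and 63.0 CPM in Control, 83.5, 74.0 and 72.1 CPM in BGP and 55.7, 56.1 and 51.4 CPM in NaHPO4. All BGP libraries were above all others, with a log2 fold change of 0.36 (SE 0.0515, adjusted p = 1.32e-05) versus Control and 0.49 (SE 0.0512, adjusted p = 1.29e-08) versus NaHPO4. *Chst15*, which adds a further sulfate to units already sulfated at carbon 4 and was named after its values were seen, held 139, 129 and 142 CPM in Control, 172, 155 and 157 CPM in BGP and 135, 131 and 127 CPM in NaHPO4. It rose by 0.24 in BGP (SE 0.0418, adjusted p = 0.000334) and was higher by 0.30 than in NaHPO4 (SE 0.0415, adjusted p = 5.2e-06). Versus Control, NaHPO4 gave -0.14 (SE 0.0522) for *Chst11* and -0.06 (SE 0.0419) for *Chst15*, which did not pass. *Bpnt2*, the most abundant gene of the group, which encodes a phosphatase of the Golgi that clears a by-product of sulfation, had values of 0.11 (SE 0.0332, adjusted p = 0.0573) and 0.06 (SE 0.0331, adjusted p = 0.276). *Chpf*, a chondroitin polymerizing factor named after its values were seen, was the gene that fell in NaHPO4, by 0.14 (SE 0.0378, adjusted p = 0.0140). That call was lost with scaling by total counts (-0.12) and without Control replicate 1 (-0.12) or NaHPO4 replicate 3 (-0.13).

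In the growth plate group, 0 of 14 tested genes passed the FDR in BGP versus Control (2 at an unadjusted p under 0.05) and 4 fell in NaHPO4. *Panx3*, a channel protein of osteoblasts and maturing chondrocytes, held 600, 589 and 572 CPM in Control, 562, 547 and 571 CPM in BGP and 526, 514 and 471 CPM in NaHPO4. Its NaHPO4 libraries were below all others, and it fell by 0.22 (SE 0.0352, adjusted p = 3.05e-05). *Pth1r*, *Fgfr3* and *Npr2*, receptors for parathyroid hormone, fibroblast growth factors and C-type natriuretic peptide that were named after their values were seen, made up the rest and fell by 0.18 (adjusted p = 0.000127), 0.18 (adjusted p = 0.000139) and 0.16 (adjusted p = 0.0105), the last of which did not pass without Control replicate 1 (-0.15). *Ibsp*, the most abundant gene of the group and a bone sialoprotein, had values of -0.00 (SE 0.0285) and -0.03 (SE 0.0285) that did not pass.

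**Figure D4:**
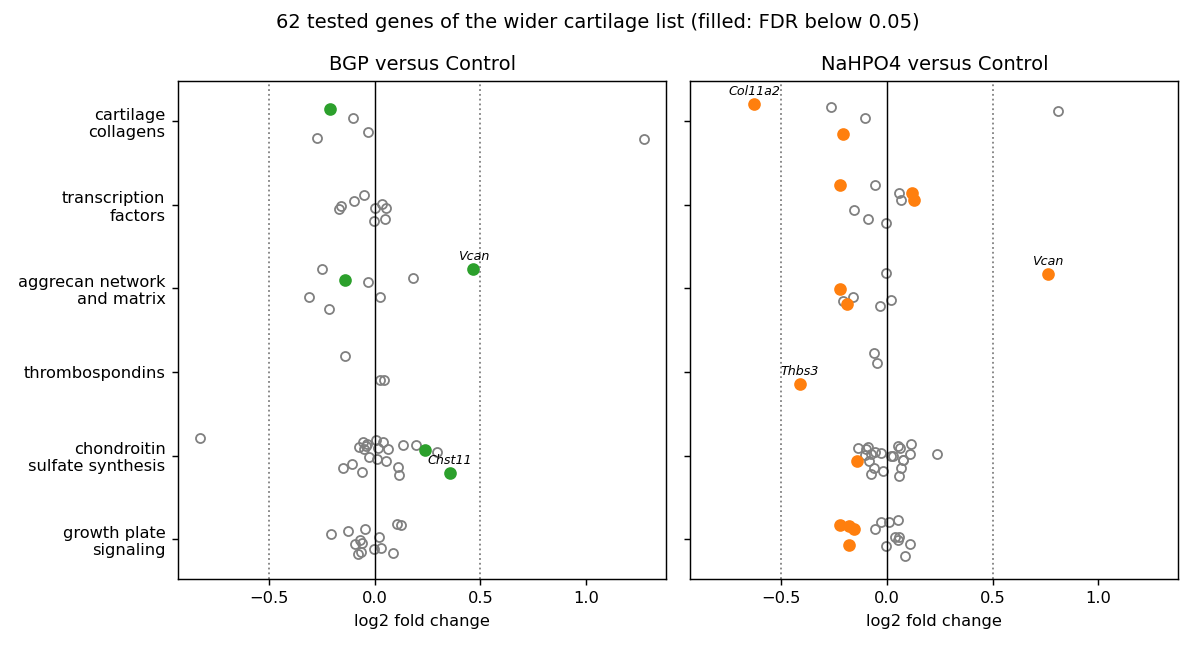
Log2 fold change of the 62 tested genes of the wider cartilage list in BGP versus Control (left) and NaHPO4 versus Control (right), by role; vertical spread of points within a role is only for visibility, filled points passed the FDR of 0.05 and dotted lines mark 0.5 in either direction. *Vcan* is to the right in both panels (0.47 and 0.76), *Col11a2* lies far to the left with NaHPO4 (-0.63), *Chst11* to the right with BGP (0.36), and the open point farthest to the right, *Col10a1*, rests on 92 counts.

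The levels of other cell types' markers were read beside these values. With NaHPO4 the summed level of the 12 osteoblast and osteocyte markers was 85515 to 92194 CPM, below the Control range. With BGP it was 95390 to 101368 CPM, which overlapped Control. Most of each sum was *Col1a1* and *Col1a2*, with means of 43284.9 and 56379.8 CPM in Control and 37254.1 and 50196.5 CPM in NaHPO4. By the FDR 6 of the 12 markers fell in NaHPO4 versus Control and 1 rose, where 3.95% and 3.43% of all tested genes did. In BGP versus Control 2 rose and 0 fell, where 1.86% and 0.665% of all tested genes did. Between the treatments 7 were higher and 0 lower in BGP, where 3.33% and 2.05% of all tested genes were. Among those that fell in NaHPO4 was *Col1a2*, by 0.17 (SE 0.0300, adjusted p = 0.000180, and 0.0604 in limma). *Sost* fell by 1.68 (SE 0.377, adjusted p = 0.00272) from 1.39 ± 0.0360 CPM in Control (SD, n = 3). *Dmp1*, the matrix protein gene of osteocytes, rose 7.24-fold in BGP (adjusted p = 1.2e-28) and 4.57-fold in NaHPO4 (adjusted p = 3.89e-25). The part of this lower osteoblast sum in the lower *Col2a1*, *Chst3*, *Col11a2* or *Panx3* of the NaHPO4 libraries was not tested.

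The other marker lists were sparse. Of the tendon markers 2 of 4 were tested, with a sum of 25.9 to 28.5 CPM in Control, 22.5 to 24.0 CPM in BGP and 22.9 to 25.5 CPM in NaHPO4, and *Scx*, which tendon and some cartilage precursors use, fell by 0.38 in BGP (SE 0.0792, adjusted p = 0.00328) and by 0.29 in NaHPO4 (SE 0.0768, adjusted p = 0.0128), the latter not without Control replicate 2 (-0.24), NaHPO4 replicate 1 (-0.25) or NaHPO4 replicate 3 (-0.27). These falls stand beside those of *Comp*, a gene that tendon also expresses, and their part in it was not tested. Of the adipocyte markers 2 of 7 were tested, with a sum of 26.0 to 31.7 CPM in Control, 24.0 to 27.9 CPM in BGP and 20.4 to 27.6 CPM in NaHPO4, led by *Cebpa*. Of the muscle markers 1 of 6 (*Des*) was tested, at a sum of 7.46 to 10.1 CPM over all libraries, and of the macrophage and endothelial markers 1 of 6 (*Csf1r*), itself at 0.590 to 1.26 CPM.

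The genes whose levels followed *Col2a1* most closely over the 9 libraries were not among the listed ones. By Pearson's correlation of log2 CPM, given as a description over libraries that share their conditions, these were *Igsf8* (r = 0.977), *Gm5835* (r = 0.963), *Plaur* (r = 0.952), *Rara* (r = 0.939) and *Nr4a1* (r = 0.936). Choosing genes this way favours those that differ between the conditions as *Col2a1* does. Their p-values below are therefore no separate evidence of a difference. Of these 5, *Gm5835* and *Nr4a1* differed between conditions by amounts near that of *Col2a1*. *Gm5835* had a mean of only 0.901 CPM in Control. Its log2 fold change was 0.60 (SE 0.309) for BGP and -0.39 (SE 0.333) for NaHPO4. Between the treatments it was 0.99 (SE 0.314), which did not pass (adjusted p = 0.0563 in edgeR's quasi-likelihood test). *Nr4a1*, an orphan nuclear receptor gene of the immediate response, had a mean of 18.1 CPM in Control, 23.8 CPM in BGP and 13.0 CPM in NaHPO4. Its log2 fold change was 0.40 (SE 0.0858, adjusted p = 0.00419) for BGP, -0.47 (SE 0.0902, adjusted p = 0.000493) for NaHPO4 and 0.87 (SE 0.0876, adjusted p = 7.12e-09) between them. The call for BGP was lost without Control replicate 2 (0.32) or BGP replicate 1 (0.29). *Igsf8*, *Plaur* and *Rara* followed the order of the libraries with differences of only 0.17, 0.14 and 0.12 between the treatments, of which the first passed the FDR (adjusted p = 0.0326), though not with total counts only (adjusted p = 0.0895), no filter on low counts (0.0514), DESeq2 (0.0516) or limma (0.0663), nor without BGP replicate 1 or 2 or NaHPO4 replicate 1 or 2 (adjusted p of 0.0667 to 0.154).

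Among the listed genes *Chst3* was nearest to *Col2a1* at r = 0.823, followed by *Sox5* at 0.387, *Sox9* at 0.259, *Comp* at 0.227, *Sox6* at -0.092, *Hapln1* at -0.337 and *Thbs4* at -0.390. With the mean of each condition subtracted first, the value for *Chst3* turned to -0.440 and that for *Comp* became 0.641, so the likeness of *Chst3* and *Col2a1* lay between conditions and not between replicates. Of the 5 genes most like *Col2a1*, 1 was again among the first 5 after that subtraction, and 3 were by Spearman's correlation.

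**Figure D5:**
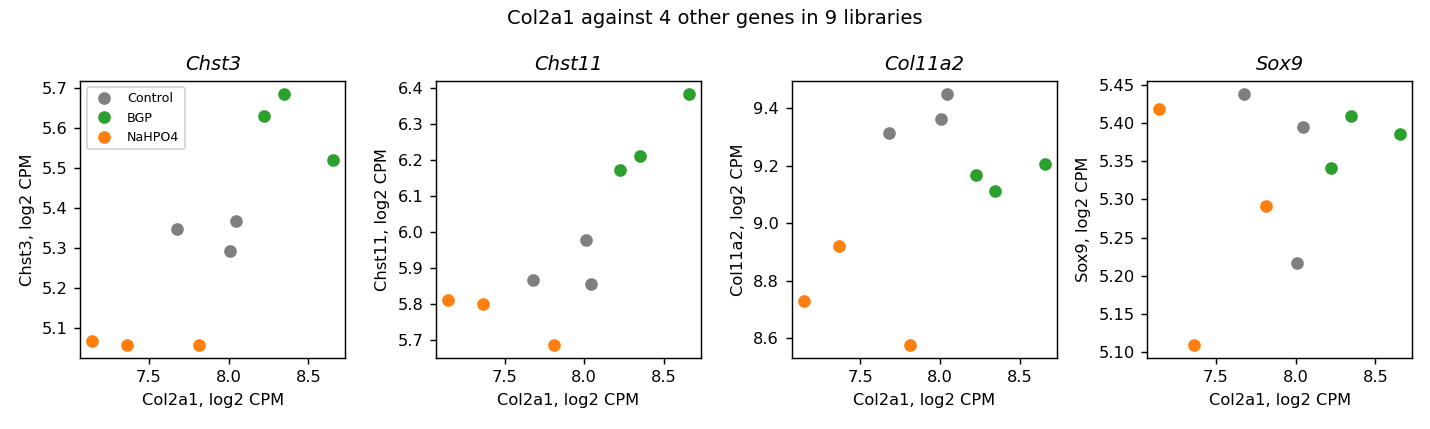
Log2 CPM of *Chst3*, *Chst11*, *Col11a2* and *Sox9* (vertical axes) against log2 CPM of *Col2a1* (horizontal axes), with a point for each library of Control (grey), BGP (green) and NaHPO4 (orange). *Chst3* and *Chst11* are highest in the BGP libraries, where *Col2a1* is also highest, *Col11a2* is highest in Control, and *Sox9* overlaps between all conditions.

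All listed genes except *Hapln1* and *Thbs4* share exon bases with genes annotated on the opposite strand, from 3.02% of exon bases in *Sox6* to 13.0% in *Sox9*, and 4.76% in *Col2a1*. The libraries were made with a kit that keeps strand, but whether the counting used strand is not stated, so reads in these stretches may belong to either gene.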

How the data were processed

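The authors checked the reads with FastQC and mapped them to GRCm39 in the AIR software, and deposited a table of raw read counts per Ensembl gene. The aligner, the counting program and its strand setting are not given in the sources used here. They also deposited a TMM-scaled signal, each library's counts times a factor of 1.01 to 1.32, used for an alternative only. Both tables held 55416 genes, with 0 columns outside the 9 libraries, and totals of 21390839 to 28234404 counts.

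Starting from the counts, genes were filtered with filterByExpr in edgeR 4.0.16 (count minimum 10), which left 13679, scaled by TMM, and fitted over all 9 libraries with glmQLFit, without a block. Each contrast went through glmQLFTest, p-values were adjusted by Benjamini-Hochberg over the 13679 genes, and genes were called at an FDR below 0.05 with an absolute log2 fold change above 0.5, the study's rule. SEs were derived from the F statistic, in which the spread of each gene is drawn toward that of other genes. Log2 CPM used a prior count of 2, and limma 3.58.1 used log2 of the signal plus 1. DESeq2 1.42.0, R 4.3.3, Python 3.11.15 and matplotlib 3.10.9 were also used. Lengths and promoters came from GENCODE on GRCm39, in which 13631 of the 13679 tested identifiers and all 135 listed genes were found.

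The 9 genes and all lists were chosen with earlier results of these data known. Named by rule are the 9 genes, the genes of the wider list that met the rule, the most abundant and the most changed gene of each group, the 5 genes most like *Col2a1*, and markers that met the rule or led their list. Other genes are named outside this rule, most of them marked in the text as named after their values were seen. Same-numbered replicates were not taken as pairs. Floors cover counting error only.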

Additional observations from a re-analysis of the deposited data

Results flagged for a closer look

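Several genes responded differently to BGP and NaHPO4. *Col2a1* and *Chst3* were picked out because every BGP library lay above and every NaHPO4 library below the Control mean. Their log2 fold changes between BGP and NaHPO4 were 0.95 and 0.55, and no p-value is given for the difference, since both genes were selected on it. The direct test between the treatments picked out the others, all adjusted over the tested genes by edgeR. *Chst11* (0.49), *Col11a2* (0.41), *Runx3* (0.22) and *Panx3* (0.15) were higher in BGP, and *Vcan* (-0.29) was lower. Of the genes most like *Col2a1*, *Nr4a1* (0.87) and *Igsf8* (0.17) differed, and of the bone markers *Sost* (1.48), *Dmp1* (0.66) and *Col1a2* (0.13) did. As *Nr4a1* and *Igsf8* were chosen for following *Col2a1* over the same libraries, that choice favoured a difference in its direction. In NaHPO4 versus Control the log2 fold change was -0.27 for *Chst3* and -0.14 for *Chst11*, the latter not passing the FDR. *Panx3* lost its call without NaHPO4 replicate 3, at a log2 fold change of 0.11 and an adjusted p of 0.0782, while *Sost* lost it in 4 of the leave-outs, with adjusted p-values up to 0.133. *Igsf8* lost it with total counts only, no filter, DESeq2, limma and 4 of the leave-outs, with adjusted p-values of 0.0514 to 0.154, and *Col1a2* lost it in limma (0.243) and without NaHPO4 replicate 3 (0.0525).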

How the results depend on the processing

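Each value named by the rule that had met the FDR kept its direction in all alternatives. Values near 0 did not all do so, among them *Sox9*, *Sox5*, *Sox6* and *Thbs4* in BGP versus Control when 1 library was left out. In BGP versus Control, 0 of the listed genes met the rule with total counts only, DESeq2's Wald test, limma or a minimum log2 fold change of 1, and 4 with no minimum. Over all tested genes the count was 346 with no minimum and 37 with a minimum of 1, and in the wider list 5 with no minimum. In NaHPO4 versus Control the count over all genes was 159 with the likelihood ratio test, 1009 with no minimum and 37 with a minimum of 1, in the wider list 14 and 0 with these minimums, and among the listed genes 4 with no minimum. In BGP versus NaHPO4 it was 122, 736 and 16 over all genes, 11 in the wider list with no minimum, and 0 among the listed genes with a minimum of 1. Leaving out 1 library at a time gave 0 to 1 listed genes in BGP versus Control (0 without BGP replicate 1, *Comp* in place of *Col2a1* without Control replicate 2), 0 to 2 in NaHPO4 versus Control (*Thbs4* without Control replicate 1, *Col2a1* and *Comp* without Control replicate 2 or NaHPO4 replicate 3) and 2 to 3 in BGP versus NaHPO4. In the wider list it gave 0 to 1, 2 to 2 and 0 to 2. Apart from the minimums, which change the rule itself, the cause of these shifts was not tested. The count of the 5 genes most like *Col2a1* that were found again was 3 by Spearman's correlation and 1 with condition means subtracted, the latter chosen after seeing the data, and 5 of 9 genes kept their rank with canonical lengths.

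Same-numbered replicates did not deviate together (correlations of -0.009 to 0.043), so the numbers do not pair the libraries. With the replicate number as a block, 76, 101 and 87 genes met the rule in the 3 comparisons, beside 76, 98 and 80 without it, the *Col2a1* value for BGP versus Control was 0.51, and *Thbs4* was called lower in BGP than in NaHPO4 (-0.53), which makes 3 listed genes in place of 2. Depth limits *Acan*, *Col10a1* and *Sost*, and the scatter of the replicates limits *Col2a1* and *Thbs4*.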
